A study of Saccharomyces cerevisiae with 6 samples.

Results

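The RNA exosome is the main 3'-5' RNA degrading and trimming machine of eukaryotic cells. The expression of 10 *Saccharomyces cerevisiae* genes that encode its subunits was followed in yeast depleted of the protein kinase Rio1. They were taken by their systematic names from a table of 7445 counted features: *SKI6* (YGR195W), *RRP42* (YDL111C), *RRP43* (YCR035C), *RRP45* (YDR280W) and *RRP46* (YGR095C) of the ring, *RRP4* (YHR069C), *RRP40* (YOL142W) and *CSL4* (YNL232W) of the cap, and the nuclease genes *DIS3* (YOL021C) and *RRP6* (YOR001W). All 10 were found in the table and passed the filter on low counts, as did 6397 features in all. The remaining ring gene, *MTR3*, is not among the 10 and is described with the cofactors.

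RNA was sequenced from 6 cultures of strain PDW2798, which has the W303 background (W303-1A in the methods). All cultures, mock-treated ones included, carried *RIO1-AID::KanMX4* and *PADH1-OsTIR1-9myc::URA3*, so that Rio1 bears an auxin-inducible degron and the rice F-box protein OsTIR1 is made from the *ADH1* promoter. The sample titles call the mock-treated cultures *RIO1*, a name the study also uses for wild-type yeast. Its text describes the mock-treated cultures as *RIO1-AID*, and that genotype is given here. The cultures grew at 25 °C in YPDA, and 3 received a mock (mock repeats 1 to 3) while 3 received 500 µM auxin for 1 h (auxin repeats 1 to 3). The methods describe the hour of auxin as 20 min at 500 µM and 40 min at 250 µM, and a protocol field names auxin for all 6 cultures, so the groups were taken from the treatment field. The design has 1 strain and no auxin-treated strain that lacks the degron, hence the loss of Rio1 and an effect of auxin itself cannot be told apart.

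Each culture had between 110119744 and 125303818 counts over all features. These totals exceed the mapped read pairs per sample that the study states, for a reason not given in the sources used here, so a count may not stand for 1 sequenced fragment. Values are given as CPM, counts per 1000000 after TMM scaling, which evens out the libraries on the assumption that most features do not change. The TMM factors spanned 0.902 to 0.928 with the mock and 1.086 to 1.093 with auxin, so the scaling differed between the groups. Fold changes are with TMM unless another scaling is named. *RIO1* itself went from 21.5 ± 1.53 to 41.0 ± 1.67 CPM (SD, n = 3 each), which does not test the labels because the degron removes the protein. Of the genes that mark haploid cells of mating type **a**, *MFA1*, *MFA2*, *STE2* and *BAR1* had group means between 118.4 and 699.3 CPM, while the α-specific *MF(ALPHA)1*, *MF(ALPHA)2* and *STE3* stayed between 0.440 and 1.81 CPM. The α-agglutinin gene *SAG1*, at 42.9 and 44.4 CPM, was the exception.

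The exosome core is a barrel. Its ring consists of proteins with an RNase PH fold that have lost catalytic activity in yeast, and its cap consists of proteins with S1 domains that guide RNA into the central channel. The nuclease Dis3 sits at the bottom of the barrel and acts both in the nucleus and in the cytoplasm, whereas the nuclease Rrp6 sits on the cap and is nuclear. Together with cofactors, the complex trims rRNA, snRNA and snoRNA precursors, destroys cryptic and noncoding transcripts, and takes part in mRNA turnover. The study examined the nuclear exosome and its TRAMP cofactor as one of the activities that remove centromeric RNA.

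The 10 genes lie on 6 chromosomes of assembly R64, the build to which the reads were aligned: *SKI6* and *RRP46* on chromosome VII, *RRP42* and *RRP45* on IV, *RRP43* on III, *RRP4* on VIII, *CSL4* on XIV, and *DIS3*, *RRP40* and *RRP6* on XV. Each has a single uninterrupted coding part, from 672 bp in *RRP46* to 3006 bp in *DIS3*, and none overlaps another gene of the annotation. Every stretch of 50 bp within a member occurs once in the genome, so a read of that length from one member matches no other place. The table also holds *YHR069C-A*, whose name derives from that of *RRP4* (*YHR069C*) but which the annotation does not list. Whether it overlaps *RRP4* is therefore not known here. It had 46 to 75 counts in the mock-treated and 391 to 446 in the auxin-treated cultures, against 8463 to 16411 for *RRP4*.

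*RRP6* is a pericentromeric gene. Its coding part (chrXV:326832-329033, plus strand) starts 129 bp from CEN15 (chrXV:326584-326702), so all 3 centromere elements of that chromosome lie in the 250 bp upstream of it. The stretch from CEN15 to the start of *RRP6* is shown because it is both pericentromere and upstream region of an exosome gene. It covers chrXV:326683-326831 on the plus strand, and the capitals mark element CDEI, to which transcription factor Cbf1 binds.
CEN15 to RRP6: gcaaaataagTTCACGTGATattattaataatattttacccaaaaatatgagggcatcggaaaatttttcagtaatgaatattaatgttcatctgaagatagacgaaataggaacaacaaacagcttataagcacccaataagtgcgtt

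The upstream regions were also searched for the motifs that mark many ribosome biogenesis genes of budding yeast, namely PAC (GATGAG, either strand) and RRPE (AAAATTTT, the same on both strands). In yeast, PAC is bound by the repressors Dot6 and Tod6, and RRPE by Stb3. PAC was present within 250 bp upstream of 5 of the 10 members, *RRP43*, *RRP4*, *RRP40*, *CSL4* and *DIS3*, and of 1022 of the 6001 protein-coding genes with such a window. RRPE was present upstream of *SKI6*, *DIS3* and *RRP6*, and in 8.65% of all windows. Only *DIS3* among the members had both, against 4.08% of all windows. *RRP42*, *RRP45* and *RRP46* had neither. The site of the general regulatory factor Reb1 (TTACCCG, either strand) was present upstream of *SKI6*, *CSL4* and *DIS3*, and in 7.03% of all windows. The short stretches around the matches are given here, with the match in capitals. Each is read 5′ to 3′ in the direction of its gene and was taken from R64.
RRP43 (chrIII:193060-193087, minus strand): caaattagacGATGAGtattgttacaca
RRP4 (chrVIII:234760-234787, minus strand): tggattgagcGATGAGgtgaaaaaaaaa
RRP40 (chrXV:55510-55537, plus strand): gcttcagcagCTCATCtccagcatttcg
CSL4 (chrXIV:214812-214839, plus strand): attcactgatGATGAGcttatggtacgg
DIS3 (chrXV:285519-285557, minus strand): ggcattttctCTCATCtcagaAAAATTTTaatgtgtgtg
SKI6 (chrVII:888670-888697, plus strand): gtgaaattgaAAAATTTTaaggcattaa
RRP6 (chrXV:326733-326760, plus strand): agggcatcggAAAATTTTtcagtaatga
The first base of PAC lies 59 bp before the coding start in *RRP43*, 119 bp in *RRP4*, 38 bp in *RRP40*, 101 bp in *CSL4* and 121 bp in *DIS3*. That of RRPE lies at 110 bp in *DIS3*, 202 bp in *SKI6* and 89 bp in *RRP6*. In *RRP40* and *DIS3* the PAC match is on the other strand, where it reads CTCATC. A match of letters does not show that a protein was bound there.

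The mRNAs of all 10 exosome subunits rose upon Rio1 depletion. Their log2 fold changes lay between 0.32 for *SKI6* and 0.64 for *CSL4*, with a median of 0.52, against 0.00 as the middle value over the 6397 tested features. All 10 passed edgeR's quasi-likelihood test (adjusted p up to 0.05) and were higher with auxin, a call that 38.5% of all tested features shared. For all 10, every auxin-treated culture also lay above every mock-treated one, which was true of 39.3% of the tested features. None of the 10 reached a log2 fold change of 1, the limit that 10.3% of the features passed in either direction, and 7.72% upward, together with the adjusted p. The members ranked between the 75.1th and the 86.3th percentile of all log2 fold changes, and the largest adjusted p among them was 3.7e-06. CPM are shares of the sequenced RNA, so more copies of an mRNA per cell and less of the other RNA cannot be told apart.

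The ring genes made the smaller steps, and *RRP46* was the exception among them. *SKI6*, which encodes the subunit also known as Rrp41, had 78.1, 77.3 and 76.4 CPM in mock repeats 1 to 3 and 98.3, 95.7 and 95.9 CPM in auxin repeats 1 to 3. *RRP42* had 81.4, 79.6 and 79.9 CPM with the mock and 102.2, 106.3 and 100.5 CPM with auxin. The groups were well apart in both genes, with log2 fold changes of 0.32 (SE 0.02, adjusted p = 1.1e-06 in edgeR's test) for *SKI6* and 0.36 (SE 0.03, adjusted p = 1.5e-06) for *RRP42*. *RRP43* had 62.5, 63.9 and 64.3 CPM in the mock-treated and 82.0, 77.9 and 83.3 CPM in the auxin-treated cultures. *RRP45* had 64.4, 63.9 and 61.4 CPM with the mock and 80.5, 80.3 and 80.3 CPM with auxin. Here too no mock-treated culture reached the lowest auxin-treated one, and the log2 fold changes of 0.35 (SE 0.03, adjusted p = 3.7e-06) for *RRP43* and 0.35 (SE 0.03, adjusted p = 1.3e-06) for *RRP45* were close to those of *SKI6* and *RRP42*. *RRP46* had 58.2, 59.8 and 59.7 CPM in the mock-treated and 88.7, 85.8 and 84.4 CPM in those given auxin. Its log2 fold change of 0.54 (SE 0.03, adjusted p = 8.1e-08) lay above those of the other 4 ring genes, which spanned 0.32 to 0.36.

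The cap genes rose by about the same factor as *RRP46*. *RRP4* had 85.7, 85.6 and 83.2 CPM in mock repeats 1 to 3 and 124.7, 125.7 and 121.3 CPM in auxin repeats 1 to 3, a log2 fold change of 0.55 (SE 0.03, adjusted p = 4.5e-08 in edgeR's test). *RRP40* had 38.8, 40.4 and 41.6 CPM with the mock and 60.0, 57.5 and 60.3 CPM with auxin, a log2 fold change of 0.56 (SE 0.03, adjusted p = 2.7e-07). Both encode cap proteins with S1 and KH domains, and in neither did the groups overlap. *CSL4* encodes the cap protein that has an S1 but no KH domain. It had 25.8, 27.2 and 29.0 CPM with the mock and 41.5, 40.8 and 45.6 CPM with auxin. It combined the lowest level with the highest log2 fold change, 0.64, and with the largest standard error of the 10 (SE 0.05, adjusted p = 2.8e-06).

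Both nuclease genes rose as well. *DIS3* encodes the only catalytic subunit of the core, an exo- and endonuclease, and had 291.9, 293.5 and 281.0 CPM in mock repeats 1 to 3 and 405.4, 416.3 and 399.0 CPM in auxin repeats 1 to 3. Its log2 fold change was 0.49 (SE 0.03, adjusted p = 1.4e-07 in edgeR's test). *RRP6*, which encodes the nuclear exonuclease of the RNase D family, had 117.4, 126.9 and 126.3 CPM with the mock and 179.6, 182.0 and 185.5 CPM with auxin. Mock repeat 1 was the lowest of its group, and all auxin-treated cultures stood far above it, with a log2 fold change of 0.56 (SE 0.03, adjusted p = 2.1e-07).

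**Figure D1:**
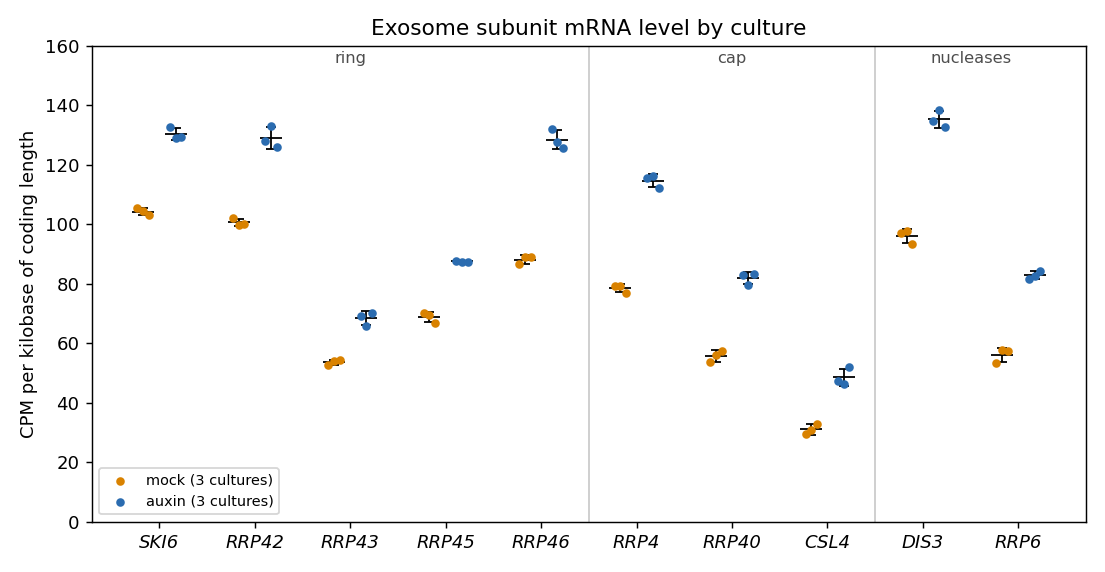
The level of each subunit mRNA (CPM per kilobase of coding length, from 0) in each of the 3 mock-treated (orange) and 3 auxin-treated (blue) cultures, with the mean and SD in black. In all 10 genes the auxin-treated cultures lie above the mock-treated ones, and *CSL4* is the lowest in both groups.

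Per kilobase of coding length, the subunit mRNAs differed 3.36-fold between the highest and the lowest mean in the mock-treated cultures. The order was *SKI6* (104.3 ± 1.13 CPM per kb, SD, n = 3), *RRP42* (100.6 ± 1.25), *DIS3* (96.1 ± 2.26), *RRP46* (88.2 ± 1.36), *RRP4* (78.6 ± 1.32), *RRP45* (68.9 ± 1.74), *RRP6* (56.1 ± 2.41), *RRP40* (55.7 ± 1.90), *RRP43* (53.6 ± 0.83) and *CSL4* (31.1 ± 1.83). The cultures of *RRP6*, *RRP40* and *RRP43* overlapped with one another, so the order of these genes does not exceed the spread between cultures. The level of *CSL4* lay at the 42.0th percentile of the tested protein-coding genes, and the others lay between the 60.7th and the 78.1th. In the auxin-treated cultures the span narrowed to 2.79-fold. *DIS3* then had the highest mean at 135.4 ± 2.91 CPM per kb, ahead of *SKI6* (130.4 ± 1.97), *RRP42* (129.1 ± 3.73) and *RRP46* (128.5 ± 3.26). The cultures of *SKI6*, *RRP42* and *RRP46* overlapped with one another. Those of *DIS3* overlapped with *RRP42*, as *DIS3* had 132.7 CPM per kb in auxin repeat 3 and *RRP42* 133.2 in auxin repeat 2. *RRP4* had 114.7 ± 2.13, *RRP45* 87.5 ± 0.14, *RRP6* 82.8 ± 1.34, *RRP40* 82.0 ± 2.12, *RRP43* 68.4 ± 2.39 and *CSL4* 48.5 ± 2.96 CPM per kb. *RRP6* and *RRP40* again overlapped. A level per kilobase also carries differences in how well a library covers each mRNA, which were not tested.

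Summed over the 10 genes, the exosome mRNAs came to 729.7, 738.0 and 731.6 CPM per kb in mock repeats 1 to 3 and to 1012, 1007 and 1004 CPM per kb in auxin repeats 1 to 3. The means of 733.1 ± 4.36 and 1007 ± 4.17 CPM per kb (SD, n = 3 each) differed 1.37-fold, far more than the repeats of a group differed from each other. An exact two-sided permutation test gave p = 0.1, the smallest that 3 cultures against 3 allow.

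The size of the rise depended on the scaling, while its direction did not. With total counts as the only scale, the midpoint of all log2 fold changes moved to 0.25, and the members lay between 0.57 and 0.89. When *ACT1*, the mRNA to which the study refers its RT-qPCR values, set the scale, the median of all features moved to 0.31 and the members lay between 0.63 and 0.95. *ACT1* fell from 4930 ± 208.9 to 3982 ± 93.3 CPM (SD, n = 3 each) under TMM scaling. Under all 3 scalings, the 10 members were called higher, and each lay above the median of all features. The share of all tested features called higher was 38.5% with TMM, 64.6% with total counts alone and 67.5% with *ACT1* as the scale.

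**Figure D2:**
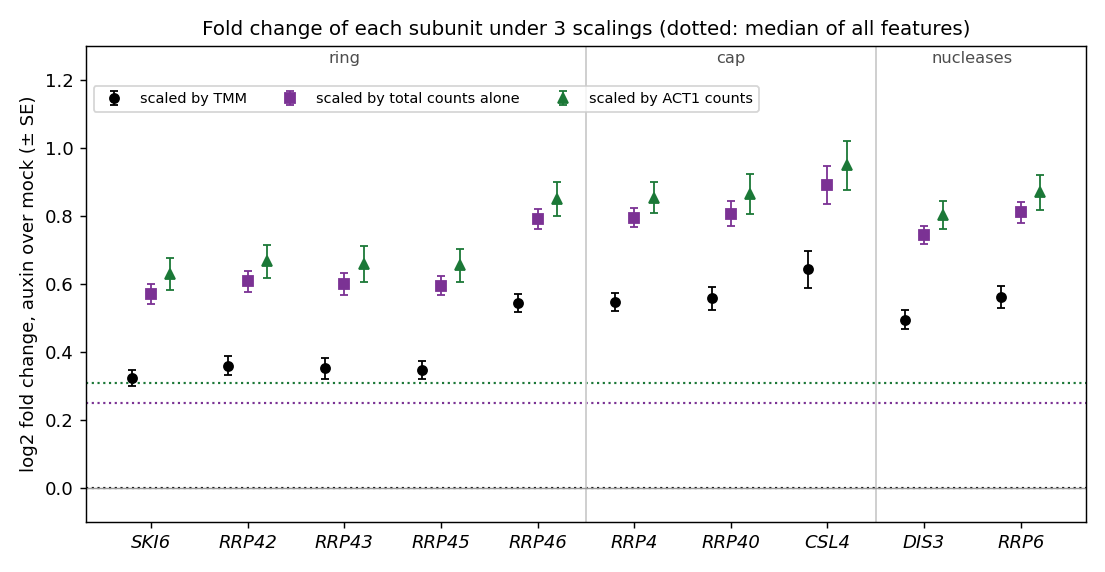
The log2 fold change (auxin over mock, with the standard error from edgeR) of each subunit mRNA with TMM scaling (circles), total counts alone (squares) and *ACT1* counts as the scale (triangles). Dotted lines mark the median of all tested features for each scaling, at 0.00, 0.25 and 0.31, and all members lie above them.

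How the subunits stand to each other does not depend on the scaling, because it is read within a culture. The share of each mRNA in the summed counts per kilobase of the 10 genes was compared with an exact two-sided permutation test for each gene, and the p-values were adjusted over the 10 shares. The smallest p possible is 0.1 (adjusted p = 0.11), so no share could pass 0.05 in this design, and the shares are given with their spread. *SKI6* went from 14.4, 14.1 and 14.1% in mock repeats 1 to 3 to 13.1, 12.8 and 12.9% in auxin repeats 1 to 3 (exact p = 0.1). The shares of *RRP42*, at 13.7 ± 0.24 and 12.8 ± 0.37%, *RRP43*, at 7.32 ± 0.10 and 6.79 ± 0.24%, and *RRP45*, at 9.39 ± 0.24 and 8.69 ± 0.03% (SD, n = 3 each), were likewise lower with auxin in every culture (exact p = 0.1 each). *RRP46* instead went from 11.9, 12.1 and 12.2% to 13.1, 12.7 and 12.5% (exact p = 0.1), the opposite direction to the other 4 ring genes. Shares and fold changes come from the same counts, so a member that rose more than the sum gains share by arithmetic. The shares are therefore no second test of the fold changes. Without division by length, the shares of *SKI6* and *RRP46* differed by -0.86 and 0.32 percentage points in place of -1.28 and 0.73.

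The cap genes and *RRP6* took larger shares with auxin. *RRP4* went from 10.7 ± 0.18 to 11.4 ± 0.19%, *RRP40* from 7.60 ± 0.25 to 8.14 ± 0.21%, *CSL4* from 4.24 ± 0.25 to 4.82 ± 0.31% and *RRP6* from 7.65 ± 0.30 to 8.22 ± 0.17% (SD, n = 3 each), with no overlap between the groups and an exact p = 0.1 for each. Without division by length, *RRP40* differed by 0.26 percentage points in place of 0.54 (exact p = 0.2) and *RRP4* by 0.48 in place of 0.68. The share of *DIS3*, at 13.1 ± 0.29 and 13.4 ± 0.28%, overlapped between the groups (exact p = 0.3). By role, the ring genes among the members, that is without *MTR3*, held 57.1, 56.5 and 56.5% of the sum in mock repeats 1 to 3. In auxin repeats 1 to 3 they held 54.3, 54.0 and 53.7%. The ratios below use the same ring genes. The log2 ratio of the mean cap level to the mean ring level was 0.18 higher with auxin, at -0.59 ± 0.03 with the mock and -0.41 ± 0.02 with auxin (SD, n = 3 each, exact two-sided p = 0.1). That of the nucleases to the ring was 0.13 higher, at -0.13 ± 0.02 with the mock and 0.00 ± 0.02 with auxin (exact two-sided p = 0.1). Adjusted over these 2 ratios, p was again 0.1, the smallest possible value.

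**Figure D3:**
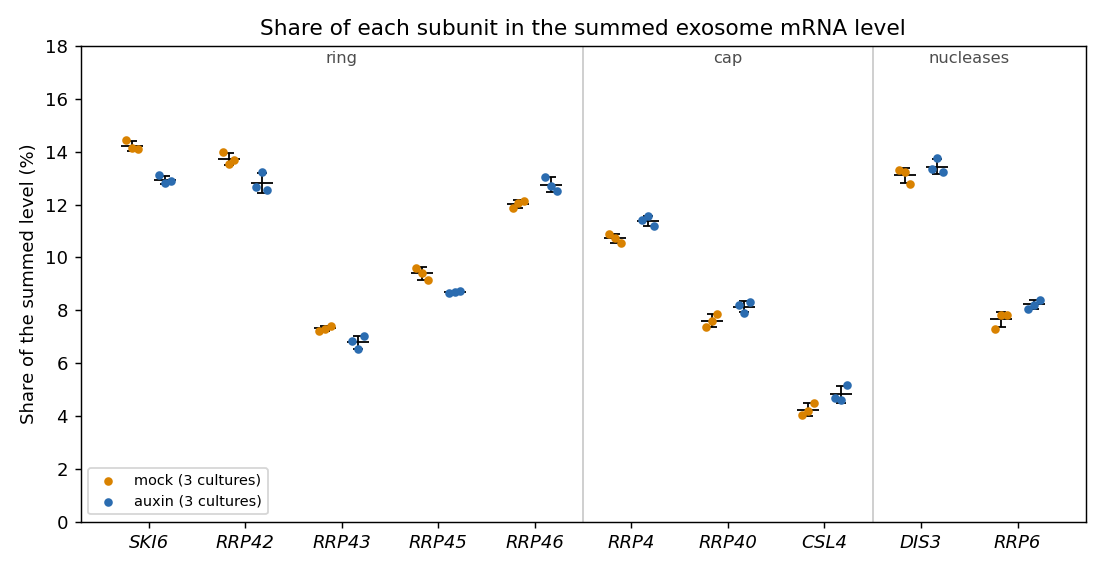
The share of each subunit (percent, from 0) in the summed counts per kilobase of the 10 genes in each of the 3 mock-treated (orange) and 3 auxin-treated (blue) cultures, with the mean and SD in black. *SKI6*, *RRP42*, *RRP43* and *RRP45* have smaller shares with auxin, *DIS3* overlaps, and the other 5 have larger ones.

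Over all tested genes, those with PAC or RRPE upstream had higher fold changes upon Rio1 depletion than those without. The median log2 fold change was 0.19 for the 965 tested genes with PAC and -0.06 for the 4845 without. It was 0.29 for the 513 tested genes with RRPE and 0.55 for the 245 with both. Of these 245 genes, 83.3% were called higher, against 29.8% of the 4577 with neither motif, whose median was -0.07. *DIS3*, the member with both, lay at 0.49, close to the median of its class. The 5 members with PAC had a median of 0.55, from 0.35 for *RRP43* to 0.64 for *CSL4*, against 0.36 for the 5 without. The 3 members with RRPE had a median of 0.49, with *SKI6*, the lowest member, at 0.32, against 0.54 for the 7 without. The 3 members with neither motif, *RRP42* at 0.36, *RRP45* at 0.35 and *RRP46* at 0.54, were nonetheless also above the median of the genes with both motifs absent. All 3 cap genes carried PAC and only 1 of the 5 ring genes, *RRP43*, did. The windows of divergent genes overlap, and that of *RRP4* reaches into the coding part of *TRM5*, so the windows are not independent of each other. These differences between classes of genes are descriptions with TMM scaling and were not tested.

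The genes on either side of the members moved in both directions. Of the 20 adjacent protein-coding genes, 16 passed edgeR's test, 5 higher and 11 lower with auxin, against 38.5% of all tested features in each direction. Their median log2 fold change was -0.18. With total counts alone, 9 were called higher and 5 lower, and with *ACT1* as the scale 11 and 3, so their balance of directions turned with the scaling. The calls over all 6397 tested features shifted the same way. They came to 4131 higher and 1072 lower with total counts alone, and to 4316 and 796 with *ACT1* as the scale. Those called higher under TMM were *TRM3*, *PPM2*, *TSR4*, *TRM5* and *TPC1*. *TRM3*, which encodes a tRNA ribose methyltransferase and ends 87 bp from the end of *RRP42*, had a log2 fold change of 0.69 (SE 0.02, adjusted p = 6.1e-09), above that of *RRP42* itself. *PPM2*, a tRNA modification gene that follows *RRP40* at 171 bp, was at 0.75 (SE 0.03, adjusted p = 1.1e-08), and *TSR4*, an assembly factor gene of the small ribosomal subunit that follows *DIS3*, was at 0.70 (SE 0.03, adjusted p = 1.1e-08).

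Divergent neighbours share the intergenic region from which a member is read. *TRM5*, a tRNA methyltransferase gene that starts 222 bp from the start of *RRP4*, was at 0.21 (SE 0.03, adjusted p = 2.2e-04), or 0.46 with total counts alone, below the 0.55 and 0.79 of *RRP4*. *TPC1*, a gene of mitochondrial thiamine pyrophosphate transport that starts 278 bp from *RRP46*, was at 0.11 (SE 0.04, adjusted p = 0.024) against 0.54, and at 0.35 with total counts alone. *RBK1*, the ribokinase gene divergent from *RRP43* at 278 bp, was at 0.04 (SE 0.04, adjusted p = 0.39), but was called higher with total counts alone, at 0.29. *RIB4*, a riboflavin synthesis gene divergent from *RRP40* at 453 bp, fell by 0.38 on the log2 scale (SE 0.03, adjusted p = 9.7e-07), although it was at -0.07 (adjusted p = 0.17) with *ACT1* as the scale. *XKS1*, the xylulokinase gene divergent from *SKI6* at 1006 bp, was at -0.53 (SE 0.03, adjusted p = 3.9e-07), or -0.28 with total counts alone, and the tryptophan permease gene *TAT2*, divergent from *DIS3* at 745 bp, was at 0.03 (SE 0.03, adjusted p = 0.37), or 0.28 with total counts alone, where it was called higher. In each of these 6 pairs the exosome gene had the higher log2 fold change.

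Across CEN15 from *RRP6* lies *PHO80*, the gene of a cyclin that acts in phosphate signalling. The pair is separated by 701 bp that contain the centromere. *PHO80* had 35.7 ± 0.95 CPM with the mock and 37.3 ± 1.99 CPM with auxin (SD, n = 3 each), and its log2 fold change of 0.06 (SE 0.04, adjusted p = 0.19) did not pass the test, although it did without auxin repeat 3, at 0.11 (adjusted p = 0.022 in edgeR's test). With total counts alone it was called higher, at 0.31 (adjusted p = 1.5e-04). *ALG6*, a glycosylation gene downstream of *RRP6* at 383 bp, was at -0.18 (SE 0.03, adjusted p = 6.4e-04) with TMM and at 0.07 (adjusted p = 0.099) with total counts alone. With *ACT1* as the scale it was called higher, at 0.13 (adjusted p = 0.017 in edgeR's test), so its direction turned. *RRP6* was at 0.56 with TMM and 0.81 with total counts alone, above both flanking genes each time. Counts per gene do not show whether reads from noncoding pericentromeric transcripts entered the count of *RRP6*. The study reports that Rio1 depletion raised the noncoding pericentromeric reads but not the coding ones. It counted reads in the regions that flank the centromeres, whereas *RRP6* is counted here over the whole gene, so the measures differ.

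**Figure D4:**
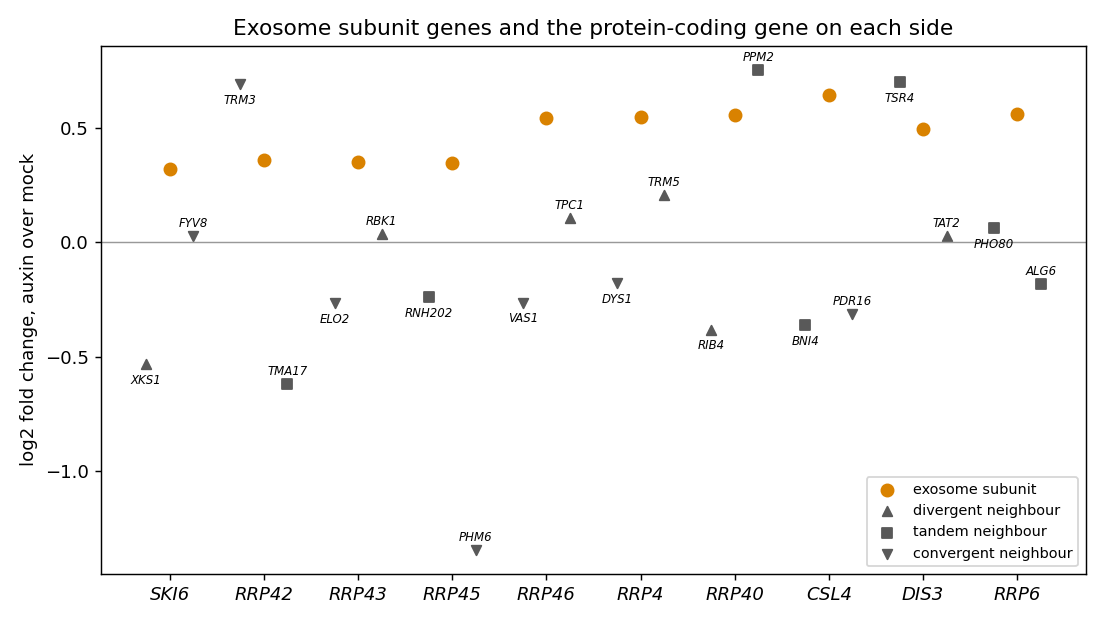
The log2 fold change (auxin over mock, TMM scaling) of each exosome subunit gene (orange) and of the protein-coding gene on each side of it (grey, by orientation). *TRM3*, *PPM2* and *TSR4* lie above the member beside them, while the other 17 neighbours lie below, down to -1.34 for *PHM6* next to *RRP45*.

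The genes that work with the exosome in the nucleus also rose. All 25 genes of the cofactor and related lists passed edgeR's test, as 77.0% of all tested features did in either direction. Of the 25, 22 were higher and 3 lower with auxin, against 38.5% of all tested features in each direction. The lists also hold cytoplasmic factors and mRNAs held down by early termination or start site choice, described below. *MTR3*, the sixth ring gene, was at 0.31 (SE 0.03, adjusted p = 4.3e-06), beside *SKI6*, *RRP42*, *RRP43* and *RRP45* and below *RRP46*. It went from 65.2 ± 1.83 to 80.8 ± 0.92 CPM (SD, n = 3 each). *LRP1*, the gene of the partner that stabilises Rrp6, rose more than any member, at 0.80 (SE 0.04, adjusted p = 6.0e-08), from 24.8 ± 0.77 to 43.1 ± 1.69 CPM. *MPP6*, whose product helps dock the helicase Mtr4, was at 0.69 (SE 0.04, adjusted p = 2.6e-07).

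The 5 genes of Mtr4 and the TRAMP complex, which unwinds RNAs and tags them with short poly(A) tails for the exosome, were all called higher, as 38.5% of all tested features were, with a median log2 fold change of 0.54. *MTR4* had 324.4 ± 11.2 CPM with the mock and 546.3 ± 4.48 CPM with auxin (SD, n = 3 each) and was at 0.75 on the log2 scale (SE 0.03, adjusted p = 1.4e-08). Of the poly(A) polymerase genes, *TRF5* was at 0.66 (SE 0.04, adjusted p = 3.4e-07), whereas *PAP2*, which encodes Trf4, was at 0.12 (SE 0.03, adjusted p = 0.0035), or 0.37 with total counts alone. The RNA-binding partners differed as well, with *AIR1* at 0.54 and *AIR2* at 0.26, the latter at 0.50 with total counts alone. *NOP53* and *UTP18*, whose products recruit Mtr4 to pre-rRNA, were at 0.63 and 0.59. Whether the paired genes differ in fold change was not tested.

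The genes of the Nrd1-Nab3-Sen1 complex, which ends noncoding transcription and hands the RNA to the exosome, were all called higher. So were 38.5% of all tested features. *NAB3* was at 0.48, *SEN1* at 0.40 and *NRD1* at 1.32 (SE 0.03, adjusted p = 1.8e-09 in edgeR's test). *NRD1* went from 286.1 ± 8.25 to 713.2 ± 25.3 CPM (SD, n = 3 each) and alone among the 25 genes passed a log2 fold change of 1 with TMM. With total counts alone or *ACT1* as the scale, *LRP1*, *MTR4* and *HRP1* passed it too. Nrd1 is known to end the transcription of its own gene early. Of the 6 mRNAs that are known to be held down by such early termination or by start site choice, *NRD1*, *HRP1* at 0.84 and *URA8* at 0.52 were called higher. *IMD2* at -0.77, *ADE12* at -0.76 and *URA2* at -0.44 were called lower, also with total counts alone and with *ACT1* as the scale, so that list had no common direction.

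In the cytoplasm, the Ski complex and its bridge Ski7 feed mRNAs to the exosome. With TMM, their 4 genes were called higher by small amounts, as 38.5% of all tested features were called higher. *SKI8* was at 0.32, *SKI2* at 0.18, *SKI7* at 0.10 and *SKI3* at 0.08, with a median of 0.14. All but *SKI8*, which was level with the lowest member, lay below that member. With total counts alone, *SKI8* was at 0.57, *SKI2* at 0.43, *SKI7* at 0.34 and *SKI3* at 0.32, each again called higher. With that scaling, 64.6% of all tested features were called higher, and the median of all was 0.25. *SKI3* did not pass the test without mock repeat 3, at 0.06 (adjusted p = 0.051). Among the 5'-3' exonucleases, *RAT1* and its partner *RAI1*, both nuclear, were at 0.42 and 0.57, and the cytoplasmic *XRN1* was at 0.14 (SE 0.02, adjusted p = 3.0e-04), or 0.39 with total counts alone. The difference between nuclear and cytoplasmic cofactors was not tested.

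**Figure D5:**
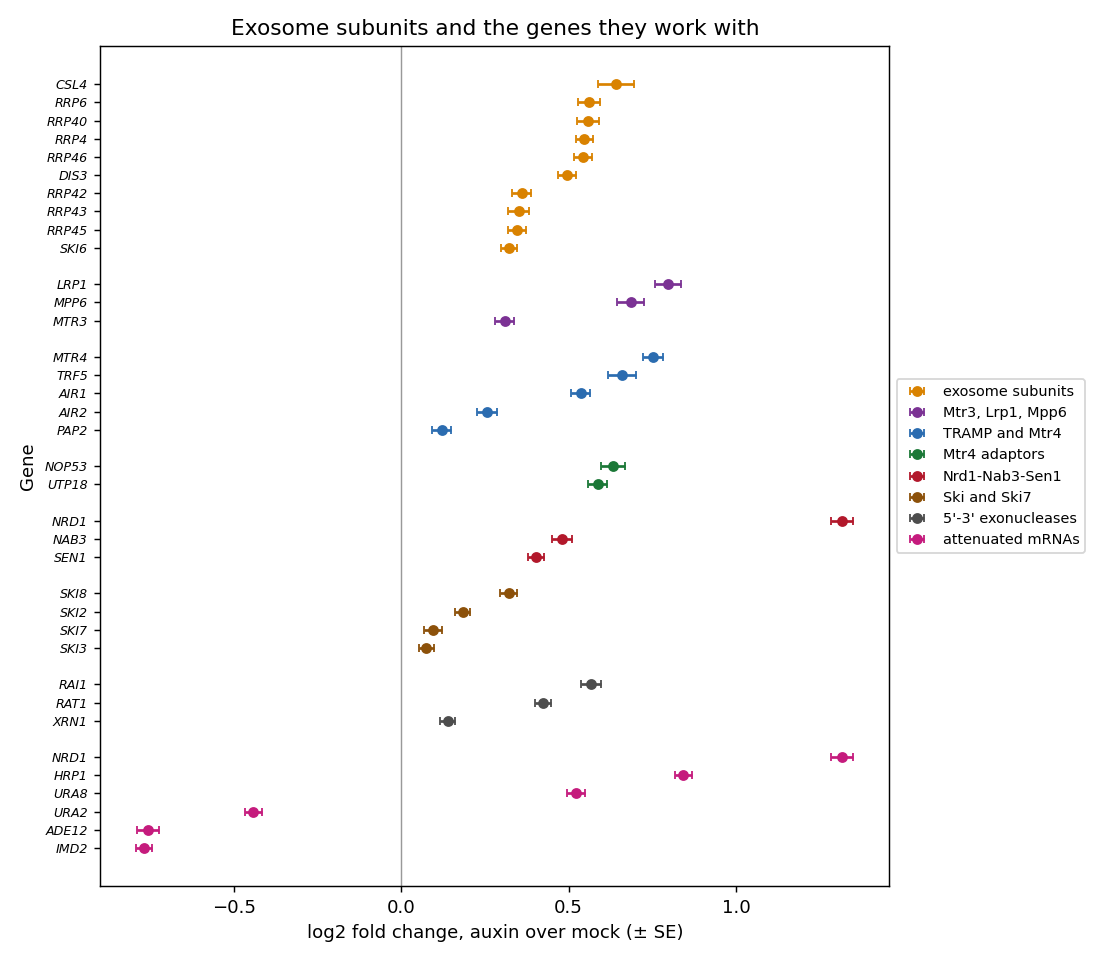
The log2 fold change (auxin over mock, TMM scaling, with the standard error from edgeR) of the 10 exosome subunit genes and of the genes of 7 further lists, colored by list. *NRD1*, at 1.32, appears in 2 lists, the Ski genes lie between 0.08 and 0.32, and *IMD2*, *ADE12* and *URA2* lie below 0.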

How the data were processed

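Total RNA of 6 cultures was freed of rRNA, made into strand-specific libraries and sequenced in paired-end mode. After Trimmomatic filtering, the authors aligned reads to sacCer3 (R64) by STAR and deposited raw counts per gene from STAR's gene counting, one column per culture. The STAR version, the annotation release and any use of molecular identifiers in counting are not given in the sources used here. The digit of a column name was read as the repeat and the letter a as auxin.

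From the deposited counts, auxin- and mock-treated cultures were compared with edgeR 4.0.16 in R 4.3.3 (filterByExpr, TMM, glmQLFit, glmQLFTest, condition as the only term) over 6397 features, with Benjamini-Hochberg adjustment. The steps were tested on simulated data. An adjusted p of at most 0.05 was a call. The standard error is the log2 fold change divided by the root of the F statistic. Levels were divided by the coding length in R64, from which coordinates, neighbours and sequences (RefSeq) were also taken. Single values were compared with exact permutation tests over cultures. Alternatives were RLE, upper-quartile, total-count and *ACT1* scaling, DESeq2 1.42.0, other filters, a block for the replicate number, and the omission of single cultures.

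The members, lists and motifs were chosen with earlier results of these data known. Named are all members, *RIO1*, *ACT1*, genes of the cofactor lists and divergent neighbours; other neighbours were named after their values were seen. The titles call the cultures biological repeats. Between repeats of a group, the chi-square divided by its degrees of freedom was 6.30 to 35.4. That measure takes every count as a separate sequenced fragment. The counts per culture exceed the mapped read pairs that the study states, so how far these values exceed counting error cannot be told.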

Additional observations from a re-analysis of the deposited data

How the results depend on the processing

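All 10 members were called higher, and none reached a log2 fold change of 1 in either direction, with each of the 8 other settings and with each of the 6 cultures left out. Of all tested features, between 35.7% (DESeq2) and 67.5% (*ACT1* as the scale) were called higher in these fits. Member log2 fold changes then ranged from 0.30 to 0.95, and the largest adjusted p of a member was 1.1e-04 (without mock repeat 2). The summed level was 1.63-fold higher with total counts alone and 1.70-fold with *ACT1* as the scale, and 1.36- to 1.38-fold when a culture was left out. Whether the replicate numbers pair the cultures is not settled. Correlations of same-numbered deviations were 0.16, -0.03 and 0.25 for repeats 1 to 3. Those of each mock repeat with the other auxin repeats were -0.26 to 0.13, -0.01 to 0.04 and -0.18 to -0.10. With the replicate number as a block (replicate block) 10 members, 25 cofactor genes and 16 neighbours were called, as without it. Of the 6397 features, 5159 were called with the block and 4927 without it. Without 1 culture the cap to ring difference was 0.17 to 0.19 and that of nucleases to ring 0.12 to 0.15. Without division by length they were 0.19 and 0.13, while the share differences of *SKI6*, *RRP46*, *RRP4* and *RRP40* moved by more than 1 SD. The ratios without a culture or length and the neighbour counts are alternatives chosen after seeing the data. Of the neighbours, 14 to 17 were called over all settings. *TPC1* was not called with DESeq2, without mock repeat 1 or 3, or without auxin repeat 1 or 2 (adjusted p = 0.056 to 0.091). The lowest count of a member in a culture was 2779.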
